A study of Mus musculus with 17 samples.

Results

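The genes described here encode the proteasome, the protease that degrades ubiquitin-tagged proteins in the cytosol and nucleus. They were taken as the rows of the deposited count table named Psma, Psmb, Psmc, Psmd, Psme or Psmf followed by a number, without the immunoproteasome catalytic genes Psmb8, Psmb9 and Psmb10. Of 41 such rows, 39 exceeded 10 CPM (counts normalised to the size of the library) in at least 2 of the 17 libraries, among 10481 genes that passed this filter in a table of 55421 rows. Each of the 39 exceeded 10 CPM in all 17 libraries. The lowest of them were Psmd9, at 11.6 to 31.5 CPM of unscaled counts, and Psmf1, at 15.7 to 30.5 CPM. Of the 2 left out, Psma8, a ring subunit known from testis, reached 4.58 CPM in its highest library, and Psmb11, a catalytic subunit known from thymus, had at most 4 counts in a library.

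Total RNA was sequenced from passage 1 cultures of lung fibroblasts of 17 mice, with 1 mouse per library. Every mouse carried floxed Ephb4 alleles and the Col1a2-CreERT2 transgene (Ephb4 f/f; Col1a2-CreERT2). Ephb4 CKO mice received 4-hydroxytamoxifen (1 mg per day for 5 days) at 4 weeks of age and Ephb4 control mice received corn oil, so both arms shared the floxed alleles and the transgene. Mice were given bleomycin (1.2 U/kg), an agent that injures the lung and leads to fibrosis, or PBS at 6 weeks of age, and lungs were taken at day 14. The 4 groups were Ephb4 control PBS (4 mice), Ephb4 control bleomycin (4 mice), Ephb4 CKO PBS (5 mice) and Ephb4 CKO bleomycin (4 mice). The Col1a2 promoter drives the recombinase, so any cell in a culture that did not express Col1a2 at the time of tamoxifen would keep Ephb4. Values below are CPM after TMM scaling, in mouse order within a group, unless stated otherwise, and the mouse numbers pair no animals between groups.

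Library totals were 66540022 to 120554468 counts, and 18.1% to 35.2% of them fell on 8 abundant noncoding genes. Ephb4, the deleted receptor kinase, was at 24.2, 4.00, 33.4 and 2.32 CPM in Ephb4 control PBS, 65.1, 13.1, 35.3 and 40.5 in Ephb4 control bleomycin, 7.70, 23.6, 8.97, 4.01 and 4.05 in Ephb4 CKO PBS and 13.97, 9.53, 10.1 and 4.93 in Ephb4 CKO bleomycin. The CKO and control ranges overlapped after PBS and also after bleomycin (adjusted p = 1.000 and 0.220, edgeR). The cultures differed widely in cell markers. The summed level of the fibroblast markers was 46.4 to 7945 CPM in Ephb4 control PBS, 6681 to 13369 in Ephb4 control bleomycin, 89.9995 to 2377 in Ephb4 CKO PBS and 76.6 to 2066 in Ephb4 CKO bleomycin, and Col1a1 was as low as 0.360 CPM in 1 Ephb4 control PBS library. The summed level of 12 macrophage markers was 9950 to 44549, 1177.5 to 19738, 20877 to 39233 and 22309 to 42771 CPM in the same order, and none of these 12 was at 0 in any library. Of 12 fibroblast markers in the table, 10 passed the level filter, and 2 of the 12 (Postn and Tcf21) were at 0 in some libraries. Xist and Y-linked genes went against the recorded sex in mouse 2 of Ephb4 control bleomycin and in mice 1 and 2 of Ephb4 CKO bleomycin, so counts are also given without these 3 libraries. Fewer cells of a type and less RNA per cell cannot be told apart in these bulk cultures, and the part of the marker differences in the results below was not tested.

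The proteasome consists of a barrel-shaped 20S core with regulatory caps. The core is built from outer rings of alpha subunits (Psma genes), which form the gate, and inner rings of beta subunits (Psmb genes), of which Psmb5, Psmb6 and Psmb7 carry the catalytic sites. The 19S cap holds a ring of ATPases (Psmc genes), which unfold substrates, and non-ATPase subunits (Psmd genes), which bind and remove ubiquitin. Psmd5, Psmd9 and Psmd10 encode chaperones that help assemble the ATPase ring. Psme1 and Psme2 encode the PA28 activator, an alternative cap induced by interferon gamma, and the same cytokine induces Psmb8, Psmb9 and Psmb10, which replace Psmb5, Psmb6 and Psmb7 in the immunoproteasome. Because the subunits are needed in fixed proportions, their genes are known to be regulated together, in part by the transcription factor Nfe2l1.

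The 39 genes together contributed 2946 to 4740 CPM per library. Their sum was 3597 ± 805 CPM in Ephb4 control PBS (SD, n = 4), 3206 ± 326 in Ephb4 control bleomycin (n = 4), 3672 ± 415 in Ephb4 CKO PBS (n = 5) and 3505 ± 487 in Ephb4 CKO bleomycin (n = 4), and the group ranges overlapped. As a share of all counts, without TMM scaling, they made up 0.279% to 0.479% of a library. The highest share belonged to Ephb4 control bleomycin mouse 1, the library with the lowest summed macrophage markers (1177.5 CPM), whereas the highest scaled sum belonged to Ephb4 control PBS mouse 4, the library with the lowest summed fibroblast markers (46.4 CPM). The 7 alpha ring genes summed to 734 ± 134 CPM in Ephb4 control PBS and 633 ± 92.8 in Ephb4 control bleomycin, and the 6 ATPase genes to 467 ± 72.1 and 516 ± 63.995.

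**Figure D1:**
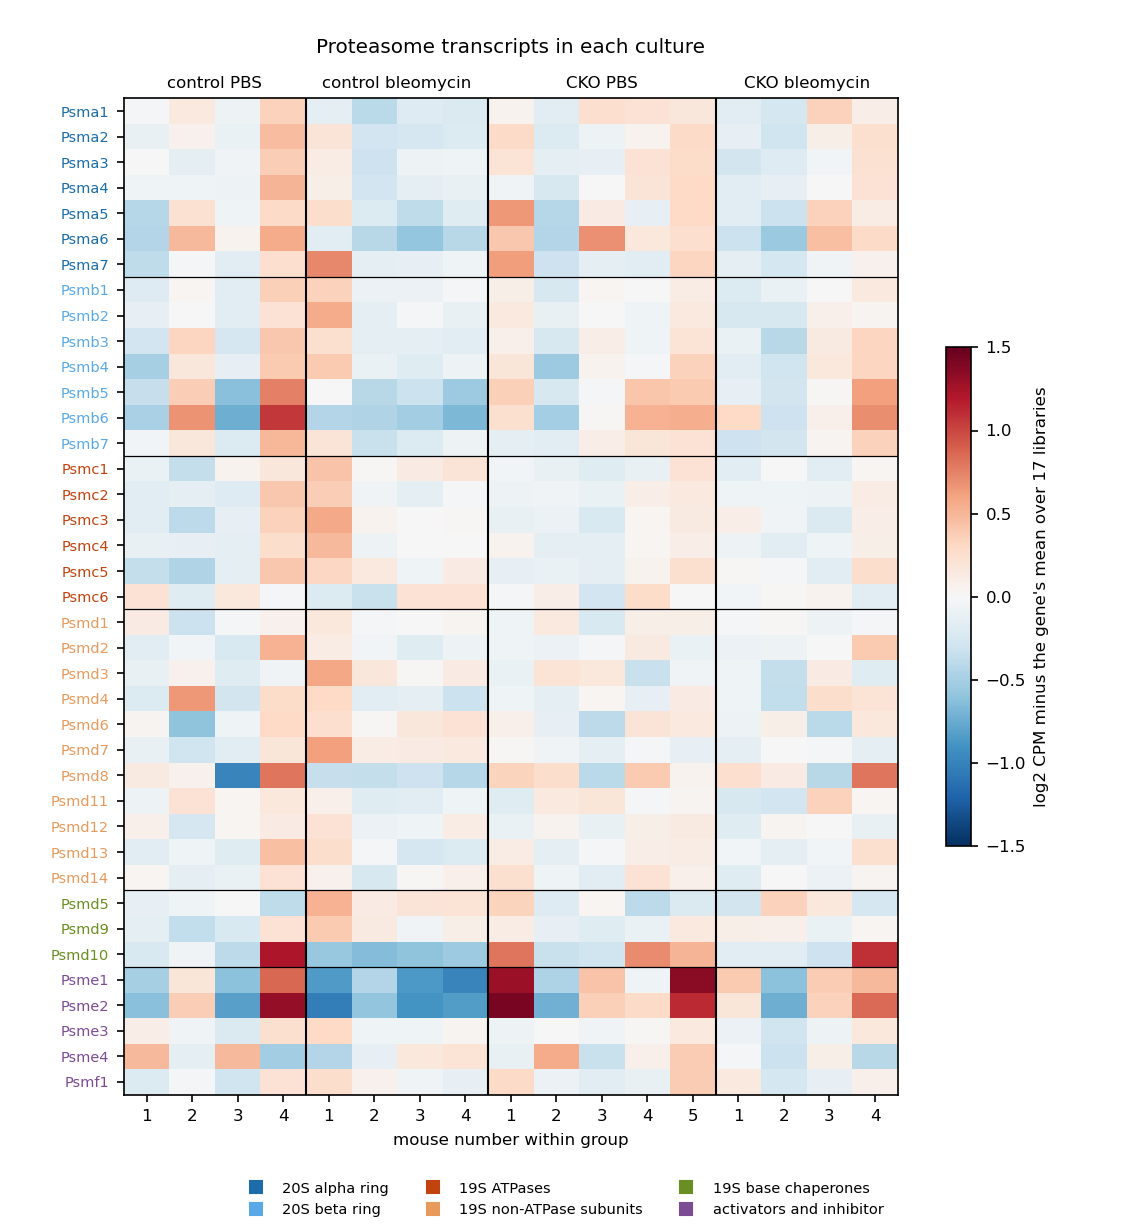
Heat map of the 39 proteasome genes (rows, grouped and coloured by role) in the 17 libraries (columns, mouse number within each group). Colour is log2 CPM minus the gene's mean over the libraries. Most rows stay pale, while Psme1, Psme2, Psmd10, Psmb6 and Psmd8 vary most between cultures of the same group.

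Counted per length (CPM per kb of exon, with overlapping exons of all annotated transcripts merged), the levels spanned from 2.58 for Psmd9 to 96.01 for Psmb6, averaged over the 17 libraries. The catalytic genes Psmb6 and Psmb5 (87.8) and the lid gene Psmd8 (92.2) were at the top, followed by Psma6 (79.5) and Psme2 (69.2). The median was 35.7 CPM per kb for the alpha ring, 50.4 for the beta ring, 38.7 for the ATPases, 20.5 for the non-ATPase subunits, 6.32 for the chaperones and 18.5 for the activators and inhibitor. The third catalytic gene, Psmb7, was at 25.3 CPM per kb, close to the lowest of the beta ring, Psmb1 at 25.1. A long annotated untranslated region lowers this measure, so the order is one of reads per annotated exon length and not of molecules.

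The first comparison asked how these genes stood in cultures from bleomycin-injured lungs against PBS in Ephb4 control mice. None of the 39 was called by edgeR's quasi-likelihood test at an adjusted p under 0.05 (0% of all 10481 genes were called), and none by DESeq2 or limma voom either, although DESeq2 called 166 genes in all. An unadjusted p under 0.05 was found for 7 members (17.9%), beside 14.3% of all genes. Of these, 2 (Psmd5 and Psmd7) were on the bleomycin side and 5 (Psma1, Psma6, Psmb6, Psmd10 and Psme2) on the PBS side, beside 6.28% and 7.98% of all genes. With total counts in place of TMM scaling, the split was 5 against 0, and DESeq2 and limma voom counted 9 and 3 members. The count was 0 to 9 over the alternatives and 1 to 9 with single libraries left out, with 1 member left after dropping Ephb4 control PBS mouse 2 or Ephb4 control bleomycin mouse 4. It was 2 without Ephb4 control bleomycin mouse 1 or mouse 3, 4 without mouse 2, and 3 when the 3 libraries of conflicting sex were left out. For these alternatives and left-out libraries, here and in the comparisons below, the share of all genes at that p was not set beside the count. The median log2 fold change of the members was -0.06, beside -0.06 for all genes, and with total counts both moved up (0.18 beside 0.15). The fitted change was under 1.5-fold either way for 34 members, beside 70.1% of all genes. For 32 members (82.1%) the 95% confidence interval of the fold change lay within 2-fold either way, beside 51.6% of all genes, and the 7 others were Psma6, Psmb5, Psmb6, Psmd8, Psmd10, Psme1 and Psme2.

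The second comparison set cultures of Ephb4 CKO against Ephb4 control mice after bleomycin, and it shares the Ephb4 control bleomycin libraries with the first. These 2 are called the bleomycin comparisons below. In the second, deletion, 4-hydroxytamoxifen itself and the difference in cell markers cannot be told apart. Again no member was called by edgeR (0% of all genes), DESeq2 or limma voom, although DESeq2 called 399 genes. An unadjusted p under 0.05 was found for 4 members (10.3%), beside 20.2% of all genes. They were Psme1 and Psme2 on the CKO side and Psmd3 and Psmd7 on the control side, beside 11% and 9.18% of all genes, while DESeq2 and limma voom counted 7 and 3 members. With total counts the split was 0 against 6. The count was 0 without Ephb4 control bleomycin mouse 1 or Ephb4 CKO bleomycin mouse 4, 1 without Ephb4 CKO bleomycin mouse 1, 2 without Ephb4 control bleomycin mouse 3 or mouse 4, and 7 without Ephb4 control PBS mouse 4, which shares the estimate of the spread, and 3 when the libraries of conflicting sex were left out. The median log2 fold change was -0.03, beside 0.01 for all genes (-0.26 beside -0.22 with total counts). The fitted change was under 1.5-fold for 34 members, beside 64.9% of all genes. Here 33 members (84.6%) had a 95% interval within 2-fold, beside 47.8% of all genes.

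For Ephb4 CKO against control after PBS, none of the 39 was called by edgeR (0% of all genes), DESeq2 (1 gene in all) or limma voom, and none had an unadjusted p under 0.05 in any of the 3 (edgeR: 1.99% of all genes), although 1 had with edgeR without Ephb4 control PBS mouse 4. All 39 fitted changes were under 1.5-fold (86.5% of all genes), and for 37 the 95% interval lay within 2-fold (62.6% of all genes), with Psme1 and Psme2 as the exceptions. In Ephb4 CKO mice, bleomycin against PBS gave the same counts for the members, 0 called and 0 at an unadjusted p under 0.05 by each tool (edgeR: 0% and 0.964% of all genes), 39 under 1.5-fold (89.3% of all genes) and 37 within 2-fold by the interval (63.6%). The interaction of genotype and bleomycin, the difference between the CKO and control bleomycin effects, called none with edgeR, DESeq2 or limma voom (0% of all genes with edgeR). At an unadjusted p under 0.05 it had 0 members with edgeR (3.46% of all genes) and 1 with DESeq2, and up to 2 with single libraries left out (2 after dropping Ephb4 control PBS mouse 3, and 1 after dropping Ephb4 control PBS mouse 1 or 4, Ephb4 CKO PBS mouse 4 or Ephb4 CKO bleomycin mouse 3). Its fitted values were under 1.5-fold for 35 members (71% of all genes), and the 95% interval lay within 2-fold for 31 (38.4% of all genes). It was 0.87 ± 0.49 log2 for Psmb6, -0.41 ± 0.22 for Psmd3 and -0.36 ± 0.19 for Psmd7 (adjusted p = 0.916 for each, edgeR). For Psmb6 it was 0.50 without control PBS mouse 4 and -0.04 with the fibroblast score (the mean level of the fibroblast markers) as a covariate. With the score of the macrophage markers, Psmd3 was at -0.25 and Psmd7 at -0.23. The fibroblast score was 8.36 to 9.16 in Ephb4 control bleomycin. It was at most 8.04 in Ephb4 control PBS, 6.43 in Ephb4 CKO PBS and 7.13 in Ephb4 CKO bleomycin. The macrophage score was at most 8.52 in Ephb4 control bleomycin and at least 8.79 in Ephb4 CKO bleomycin. With these covariates, here and below, group and cell markers cannot be fully separated.

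**Figure D2:**
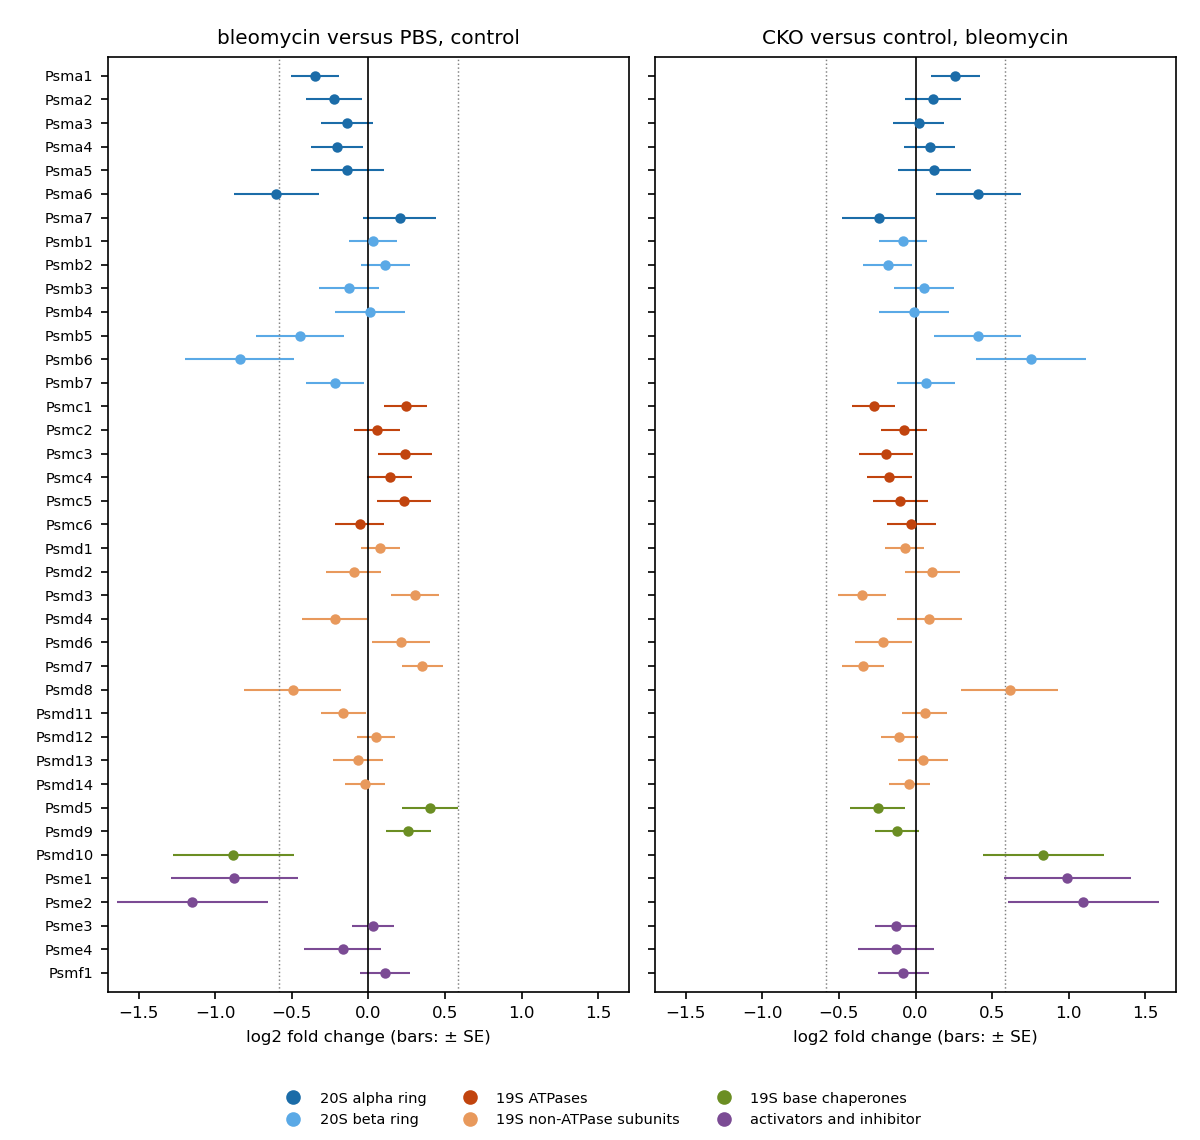
Fitted log2 fold change of each proteasome gene (points, coloured by role, with bars of ± 1 SE) for bleomycin over PBS in Ephb4 control mice (left) and for Ephb4 CKO versus control after bleomycin (right). Dotted lines mark 1.5-fold. The panels share the Ephb4 control bleomycin libraries, and 34 of the 39 points lie between the dotted lines in each.

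Alpha ring genes, which shape the gate of the core, were mostly below the median of all genes in Ephb4 control mice after bleomycin. Of 7, 1 (Psma7) lay above that median, with TMM scaling and with total counts alike, and the median of the ring was -0.20 on the log2 scale with TMM and 0.03 with total counts, beside -0.06 and 0.15 for all genes. After bleomycin, 6 of 7 lay above the all-gene median in the CKO contrast under either scaling. Psma1, named here because its groups did not overlap, was at 103, 116, 98.99 and 133 CPM in Ephb4 control PBS and 94.3, 78.7, 90.9 and 89.3 in Ephb4 control bleomycin. Every bleomycin value lay below every PBS value, as for 3.2% of all genes in that direction. Its difference was -0.35 ± 0.16 log2 (SE, adjusted p = 0.342, edgeR) and -0.11 with total counts, beside 0.15 for all genes, and in Ephb4 CKO bleomycin it was at 92.7, 86.6, 132 and 111 CPM, with 2 values inside and 2 above the range of Ephb4 control bleomycin.

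Psma6 had the highest level per length in the alpha ring, the largest fitted difference of the ring in both bleomycin comparisons, and its widest spread. It was at 69.1, 132, 97.4 and 138 CPM in Ephb4 control PBS, 84.5, 70.5, 62.7 and 70.2 in Ephb4 control bleomycin, 125, 69.2, 151, 105 and 112 in Ephb4 CKO PBS and 75.4, 64.1, 128 and 115 in Ephb4 CKO bleomycin. The lowest PBS value lay below 3 of the 4 bleomycin values in control mice, and the difference of -0.60 ± 0.28 log2 had an adjusted p of 0.347 (edgeR). It was -0.34 with total counts and -0.10 with the number series of the library names as a covariate. The CKO contrast after bleomycin, 0.41 ± 0.28, was 0.05 with that covariate and 0.23 without Ephb4 CKO bleomycin mouse 3. Every Ephb4 control bleomycin library was of series 12. Ephb4 control PBS mice 2, 3 and 4 and Ephb4 CKO bleomycin mice 3 and 4 were of series 11. Series and group therefore overlap and cannot be fully separated. Psma7 stood out in a single culture of its group, at 131, 72.5, 72.9 and 76.1 CPM in Ephb4 control bleomycin against 61.1, 78.9, 70.8 and 95.2 in Ephb4 control PBS, 123, 64.3, 71.8, 71.4 and 99.3 in Ephb4 CKO PBS and 71.96, 66.5, 76.5 and 83.4 in Ephb4 CKO bleomycin. Without the first Ephb4 control bleomycin mouse, the values of that group lay inside the PBS range. Over the 17 libraries the other alpha ring genes ranged from 92.8 to 158 CPM for Psma2, 101 to 162 for Psma3, 86.9 to 151 for Psma4 and 50.03 to 106 for Psma5.

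The beta ring holds the catalytic sites, and here the catalytic genes Psmb5 and Psmb6 varied more than the other 5 genes. Of 7, 3 lay above the all-gene median for bleomycin against PBS in control mice and 4 in the CKO contrast after bleomycin, with TMM scaling and with total counts alike. The promoters of these genes are shown because both hold the core letters of the antioxidant response element, TGACNNNGC, the kind of site that Nfe2l1 binds. The windows are RefSeq sequences of GRCm38.p6, from 250 bases before to 50 bases after the gene start, 5′ to 3′ on the gene's strand, with the match in capitals. Psmb5 spans chr14:54617946-54618245, minus strand, with its match starting 47 bases before the gene start, and Psmb6 spans chr11:70525107-70525406, plus strand, with its match starting 9 bases before it.
Psmb5 promoter: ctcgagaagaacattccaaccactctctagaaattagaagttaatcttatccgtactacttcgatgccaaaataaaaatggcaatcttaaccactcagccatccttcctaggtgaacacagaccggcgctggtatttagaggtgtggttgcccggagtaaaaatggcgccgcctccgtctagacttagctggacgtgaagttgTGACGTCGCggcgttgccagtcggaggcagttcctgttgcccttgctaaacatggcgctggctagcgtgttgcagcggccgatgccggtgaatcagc
Psmb6 promoter: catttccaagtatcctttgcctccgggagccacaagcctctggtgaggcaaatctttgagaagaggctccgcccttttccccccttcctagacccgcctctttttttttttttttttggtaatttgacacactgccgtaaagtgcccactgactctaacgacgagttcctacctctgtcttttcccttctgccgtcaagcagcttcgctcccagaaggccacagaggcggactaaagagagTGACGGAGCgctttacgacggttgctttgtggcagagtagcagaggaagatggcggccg
Windows were given for 33 of the 39 genes, 36 windows in all. Searched on both strands, TGACNNNGC was present for 6 of these 33 (18.2%: Psmb5, Psmb6, Psmc6, Psmd9, Psmd12 and Psme4) and in 12.4% of 32851 windows of all genes. The NF-Y box CCAAT was present for 12 (36.4%) and in 37.4% of all windows. The members' shares are per gene and those of all genes per window, so they are not the same measure. A match is a string of letters and not a measured site.

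Psmb6, which encodes the caspase-like catalytic subunit, was at 119, 267, 101 and 349.8 CPM in Ephb4 control PBS and 123, 122, 117 and 105 in Ephb4 control bleomycin. It was at 197, 117, 169, 239.8 and 244 CPM in Ephb4 CKO PBS and 205, 134, 176 and 269.9 in Ephb4 CKO bleomycin. The 4 Ephb4 control bleomycin cultures were close together, the PBS cultures of the same arm spanned both sides of them, and the 4 CKO bleomycin cultures all lay above them (groups did not overlap in this direction for 11% of all genes). The fitted differences were -0.84 ± 0.36 log2 for bleomycin in control mice (adjusted p = 0.332, edgeR) and 0.75 ± 0.36 for CKO against control after bleomycin (adjusted p = 0.249). The first of these was -0.47 without Ephb4 control PBS mouse 4. With the mean level of the fibroblast markers as a covariate they were 0.15 and -0.02, and with that of the macrophage markers -0.39 and 0.30.

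Psmb5, which encodes the chymotrypsin-like subunit that bortezomib blocks, was at 59.8, 97.9, 49.2 and 128 CPM in Ephb4 control PBS, 76.3, 56.8, 60.5 and 52.1 in Ephb4 control bleomycin, 97.5, 64.2, 74.1, 101 and 99.4 in Ephb4 CKO PBS and 69.5, 62.9, 76.7 and 116 in Ephb4 CKO bleomycin. Its groups overlapped in every comparison, and the difference for bleomycin in control mice was -0.45 ± 0.28 log2 (adjusted p = 0.460, edgeR). Dropping control PBS mouse 4 left -0.17, and it was 0.35 with the fibroblast markers as a covariate. The ring's other catalytic gene, Psmb7, which encodes the trypsin-like subunit, was steadier, at 82.9, 96.03, 74.1 and 120.8 CPM and 97.9, 68.1, 74.2 and 80.9 CPM in the same first 2 groups and 77.6, 76.5, 91.3, 96.8 and 99.1 and 69.03, 70.8, 87.99 and 108 in the CKO groups. Its difference in control mice was -0.22 ± 0.19 log2, with an interval of -0.62 to 0.18. Psmb1, a noncatalytic ring subunit, was at 100.3, 117, 101 and 147 CPM in Ephb4 control PBS and 146, 108, 107 and 113 in Ephb4 control bleomycin, where mouse 1 was again apart from the rest, and at 121.4, 97.2, 116, 114 and 124 in Ephb4 CKO PBS and 99.5, 107, 114 and 126 in Ephb4 CKO bleomycin. The remaining ring genes ranged from 63.99 to 111 CPM for Psmb2, 51.8 to 91.6 for Psmb3 and 66.4 to 127 for Psmb4.

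**Figure D3:**
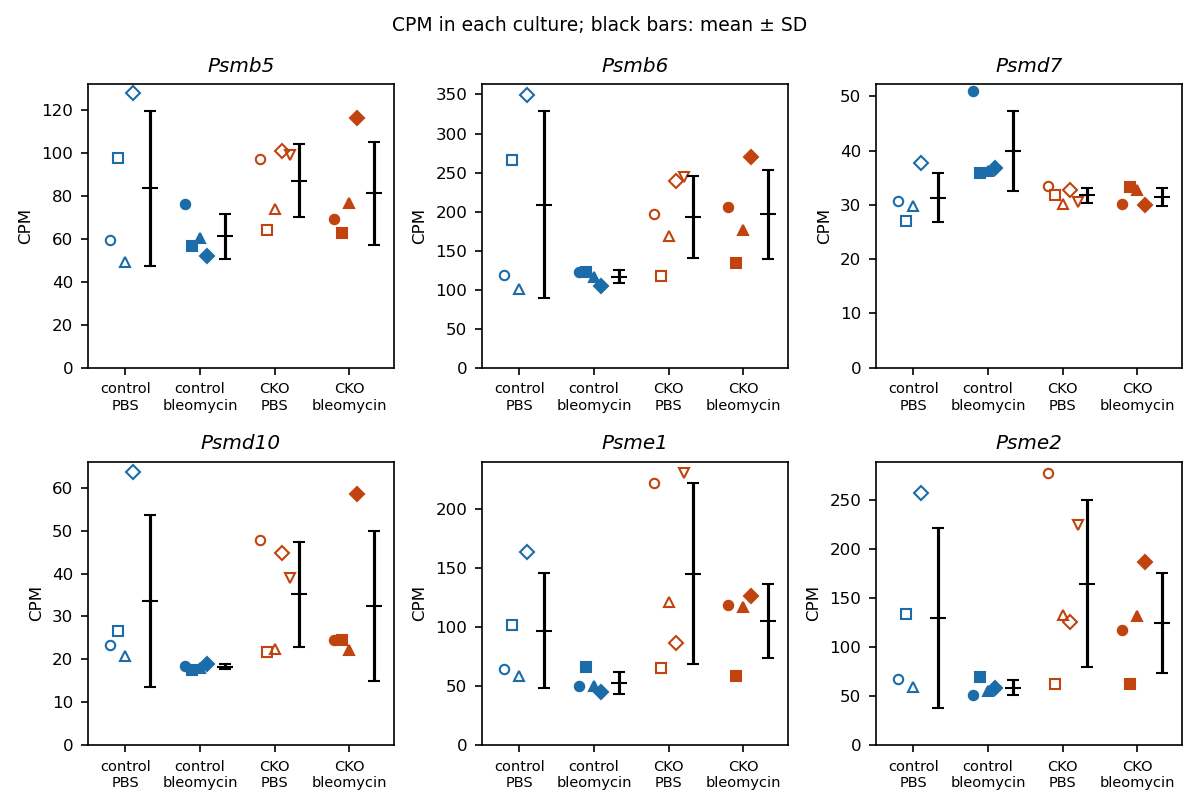
CPM of 6 proteasome genes in each culture, by group (open symbols PBS, filled bleomycin, blue Ephb4 control, red Ephb4 CKO, 1 marker shape per mouse number, black bars mean ± SD). The 4 Ephb4 control bleomycin cultures are tightly grouped for Psmb6 and Psmd10, while the PBS and CKO groups spread widely.

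ATPase genes of the 19S cap lay mostly on the opposite side of the all-gene median from the alpha ring. In Ephb4 control mice, all 6 lay above the all-gene median after bleomycin with TMM scaling and 5 of 6 with total counts, with a median of 0.18 log2 beside -0.06 for all genes. In the CKO contrast after bleomycin, 0 of 6 lay above the all-gene median under either scaling, and their median was -0.13. None passed the test, and both contrasts contain the same 4 Ephb4 control bleomycin libraries. Genes of each list also varied together between cultures, as given below, so their number on 1 side is not a count of separate observations. Psmc4 was at 86.9, 86.3, 84.9 and 112 CPM in Ephb4 control PBS, 131, 88.8, 94.2 and 93.6 in Ephb4 control bleomycin, 97.5, 85.7, 85.2, 95.7 and 101 in Ephb4 CKO PBS and 88.9, 84.04, 89.5 and 99.8 in Ephb4 CKO bleomycin. Its differences were 0.14 ± 0.15 log2 and -0.17 ± 0.15 log2 (adjusted p = 0.658 and 0.490, edgeR), and 1 culture in each control group was high. Psmc2 was at 50.4, 50.98, 49.2 and 74.1 CPM in Ephb4 control PBS, 72.4, 54.2, 51.4 and 55.5 in Ephb4 control bleomycin, 53.5, 54.1, 52.4, 59.98 and 61.96 in Ephb4 CKO PBS and 53.6, 53.9, 53.5 and 60.8 in Ephb4 CKO bleomycin. The same pair of control cultures, PBS mouse 4 and bleomycin mouse 1, was high for both genes. The other 4 ATPase genes ranged from 59.04 to 101 CPM for Psmc1, 83.8 to 163 for Psmc3, 38.1 to 69.1 for Psmc5 and 69.2 to 106 for Psmc6.

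The 11 non-ATPase subunits receive ubiquitinated substrates, and their genes were split around the all-gene median. For bleomycin in control mice 6 lay above it (7 with total counts), and in the CKO contrast after bleomycin 5 did under either scaling. Psmd7 had the smallest p of all members in both bleomycin comparisons. Psmd7, a partner of the deubiquitinase Psmd14 in the lid, was at 30.6, 27.1, 29.8 and 37.8 CPM in Ephb4 control PBS, 50.95, 35.8, 36.2 and 36.9 in Ephb4 control bleomycin, 33.5, 31.9, 30.2, 32.7 and 30.5 in Ephb4 CKO PBS and 30.2, 33.2, 32.7 and 29.9 in Ephb4 CKO bleomycin. All 4 Ephb4 control bleomycin cultures lay above all 4 CKO bleomycin cultures (12.2% of all genes did not overlap in this direction), whereas PBS mouse 4 of the control arm lay among the bleomycin values. The differences were 0.35 ± 0.14 log2 (95% interval 0.06 to 0.64, adjusted p = 0.320, edgeR) and -0.34 ± 0.14 log2 (-0.63 to -0.05, adjusted p = 0.220). With total counts they were 0.58 and -0.58, beside 0.15 and -0.22 for all genes, and with the macrophage markers as a covariate 0.20 and -0.18.

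Psmd3, a scaffold subunit of the lid, was at 39.9, 44.9, 37.9 and 41.4 CPM in Ephb4 control PBS, 64.1, 48.3, 43.4 and 46.7 in Ephb4 control bleomycin, 40.2, 49.7, 48.1, 34.1 and 41.6 in Ephb4 CKO PBS and 41.01, 33.6, 46.6 and 37.8 in Ephb4 CKO bleomycin. Its differences were 0.30 ± 0.16 log2 for bleomycin in control mice and -0.35 ± 0.16 for CKO against control (adjusted p = 0.383 and 0.236, edgeR), with overlapping groups in both. With the macrophage markers as a covariate they were 0.14 and -0.16, and the first was 0.20 without Ephb4 control bleomycin mouse 1. Psmd8, another lid subunit, had the second highest level per length of all members and a wide spread. It was at 295, 281, 134 and 468 CPM in Ephb4 control PBS, 211, 209.7, 217 and 199 in Ephb4 control bleomycin, 339, 322, 203, 351 and 279 in Ephb4 CKO PBS and 319, 293, 201 and 468 in Ephb4 CKO bleomycin. PBS mouse 3 and PBS mouse 4 of the control arm were its lowest and one of its highest cultures, and the control bleomycin cultures lay between them. Its differences in the bleomycin comparisons were -0.49 ± 0.32 and 0.61 ± 0.32 log2 (adjusted p = 0.463 and 0.271, edgeR), but -0.18 after dropping PBS mouse 4 of the control group and 0.37 after dropping bleomycin mouse 4 of the CKO group, and 0.47 and -0.14 with the fibroblast markers as a covariate.

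Psmd1 and Psmd2 encode the large scaffold subunits of the base. Psmd1 was the steadiest member, with a within-group SD of 0.13 log2. It was at 134, 98.2, 122 and 128 CPM in Ephb4 control PBS, 137, 120.97, 124 and 127 in Ephb4 control bleomycin, 118, 136, 105, 131 and 130.4 in Ephb4 CKO PBS and 122, 124, 117 and 121.1 in Ephb4 CKO bleomycin. Psmd2 was at 229, 247, 217 and 366 CPM in Ephb4 control PBS and 239, 241, 254 and 334 in Ephb4 CKO bleomycin, with mouse 4 high in both groups, and at 275, 247, 225 and 242 in Ephb4 control bleomycin and 243, 239.5, 251, 280.2 and 238 in Ephb4 CKO PBS. Its difference for CKO against control after PBS was -0.08 ± 0.17 log2 (adjusted p = 1.000, edgeR) and 0.12 without Ephb4 control PBS mouse 4. Psmd4, a ubiquitin receptor of the cap, was at 80.7, 146, 77.1 and 112 CPM in Ephb4 control PBS, where mouse 2 was highest, and at 88.99, 84.4, 94.8, 85.5 and 101 in Ephb4 CKO PBS, 115, 83.3, 84.5 and 74.6 in Ephb4 control bleomycin and 89.1, 71.9, 112 and 107 in Ephb4 CKO bleomycin. Its CKO against control difference after PBS was -0.19 ± 0.20 log2, and 0.021 without Ephb4 control PBS mouse 2.

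Psmd11, the lowest non-ATPase gene per length, was at 42.6, 51.97, 45.6 and 49.9 CPM in Ephb4 control PBS, 47.2, 39.4, 40.2 and 42.8 in Ephb4 control bleomycin, 39.6, 49.5, 50.9, 43.9 and 45.9 in Ephb4 CKO PBS and 37.8, 36.6, 56.8 and 45.6 in Ephb4 CKO bleomycin, with overlapping groups throughout. The deubiquitinase gene Psmd14 ranged over 65.2 to 91.3 CPM. The remaining subunits of the cap ranged over 38.1 to 71.4 CPM for Psmd6, 42.9 to 59.7 for Psmd12 and 57.7 to 93.4 for Psmd13.

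The 3 assembly chaperones lay on different sides of the all-gene median in both bleomycin comparisons, under either scaling. Psmd5 was at 41.1, 43.1, 45.03 and 34.5 CPM in Ephb4 control PBS and 64.3, 48.99, 51.1 and 51.7 in Ephb4 control bleomycin, with every bleomycin value above every PBS value (5.72% of all genes in this direction). It was at 56.4, 39.2, 45.9, 34.2 and 38.5 CPM in Ephb4 CKO PBS and 37.01, 57.3, 49.999 and 37.7 in Ephb4 CKO bleomycin, where the groups overlapped, and the difference in control mice was 0.40 ± 0.18 log2 (adjusted p = 0.345, edgeR) and 0.12 with the fibroblast markers as a covariate. In CKO mice the bleomycin difference was 0.09 ± 0.17 log2. Psmd9, the lowest member per length, was at 16.95, 14.3, 15.9 and 21.5 CPM in Ephb4 control PBS, 24.3, 20.3, 17.95 and 19.7 in Ephb4 control bleomycin, 20.1, 16.99, 16.3, 17.4 and 20.6 in Ephb4 CKO PBS and 19.7, 19.6, 17.3 and 19.0004 in Ephb4 CKO bleomycin.

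Psmd10, which encodes gankyrin, was at 23.4, 26.6, 20.9 and 63.6 CPM in Ephb4 control PBS and 18.5, 17.5, 18.1 and 18.9 in Ephb4 control bleomycin. In the CKO arm it was at 47.8, 21.8, 22.4, 44.7 and 38.9 CPM after PBS and 24.4, 24.5, 22.1 and 58.7 after bleomycin. The 4 Ephb4 control bleomycin cultures were below all 13 other libraries, and neither of the 2 groups that share them in a comparison overlapped with them. The differences were -0.88 ± 0.40 and 0.83 ± 0.39 log2 (adjusted p = 0.340 and 0.248, edgeR). After dropping control PBS mouse 4 and CKO bleomycin mouse 4, respectively, they were -0.37 and 0.38, and 0.11 and -0.03 with the fibroblast markers as a covariate. The summed fibroblast markers, 6681 to 13369 CPM in those 4 cultures, were 46.4 CPM in Ephb4 control PBS mouse 4 and 76.6 CPM in Ephb4 CKO bleomycin mouse 4, the 2 libraries with the highest Psmd10. They were 7945 CPM in Ephb4 control PBS mouse 3, where Psmd10 was at 20.9 CPM. However, they were 123 CPM in Ephb4 control PBS mouse 2 and 1075 CPM in Ephb4 CKO PBS mouse 1, where Psmd10 was at 26.6 and 47.8 CPM. The part of the marker levels in the Psmd10 values was not tested. In all, 3 of 39 members did not overlap between bleomycin and PBS in control mice (7.69%, beside 8.91% of all genes): Psma1, Psmd5 and Psmd10. Another 3 of 39 did not overlap between CKO and control after bleomycin (7.69%, beside 23.1% of all genes): Psmb6, Psmd7 and Psmd10. No member was free of overlap in the other 2 comparisons (0.248% of all genes for CKO against control after PBS and 0.0859% for bleomycin against PBS in CKO mice).

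The PA28 activator genes Psme1 and Psme2 had the widest spread of all members, and Psme2 had the largest fitted difference of any member in both bleomycin comparisons. They lie 5911 bp apart on mouse chromosome 14, and their promoter windows are shown because they varied together. Psme1 (chr14:55578244-55578543, plus strand) holds a match, in capitals, to an interferon response core, 2 copies of GAAA with 2 bases between them, read on the opposite strand from 9 bases after the gene start. Psme2 (chr14:55591052-55591351, minus strand) has a second annotated start whose window overlaps this one, and neither window holds TGACNNNGC, CCAAT, the interferon response core or the STAT core TTCNNNGAA.
Psme1 promoter: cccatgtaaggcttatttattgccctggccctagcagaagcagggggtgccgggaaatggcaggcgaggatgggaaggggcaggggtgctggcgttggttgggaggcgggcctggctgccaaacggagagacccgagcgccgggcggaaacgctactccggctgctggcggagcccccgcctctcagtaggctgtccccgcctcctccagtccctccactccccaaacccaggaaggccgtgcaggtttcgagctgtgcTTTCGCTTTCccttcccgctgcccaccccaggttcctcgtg
Psme2 promoter: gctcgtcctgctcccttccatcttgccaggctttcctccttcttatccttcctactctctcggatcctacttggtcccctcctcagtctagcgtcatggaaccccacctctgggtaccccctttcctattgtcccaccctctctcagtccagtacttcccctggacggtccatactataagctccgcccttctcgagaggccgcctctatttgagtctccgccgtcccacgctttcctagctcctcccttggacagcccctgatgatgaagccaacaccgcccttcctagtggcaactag
The last 2 of these motifs were added after the spread of these genes had been seen. The interferon response core was present for 4 of the 33 genes with a window (12.1%: Psmb3, Psmd4, Psmd9 and Psme1) and in 3.44% of all windows, and TTCNNNGAA for 1 (Psmd2) and in 8.30%. Here too the members are counted per gene and all genes per window.

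Psme1 was at 63.9, 102, 58.7 and 163 CPM in Ephb4 control PBS, 49.9, 66.4, 49.7 and 45.3 in Ephb4 control bleomycin, 221, 65.2, 121.1, 86.2 and 230.4 in Ephb4 CKO PBS and 118, 58.7, 117 and 126 in Ephb4 CKO bleomycin. Psme2 was at 67.3, 134, 59.04 and 258 CPM, 50.7, 69.1, 55.7 and 58.2, 277, 62.8, 133, 126 and 225 and 118, 62.5, 132 and 187 in the same order. Both genes were low in the 4 Ephb4 control bleomycin cultures and in 1 to 2 cultures of each other group, so the groups overlapped in every comparison. The differences for bleomycin in control mice were -0.88 ± 0.42 and -1.15 ± 0.49 log2 (adjusted p = 0.351 and 0.332, edgeR), and those for CKO against control after bleomycin were 0.99 ± 0.42 and 1.10 ± 0.49 log2 (adjusted p = 0.227 and 0.237). After PBS the CKO differences were 0.58 ± 0.40 and 0.35 ± 0.47 log2, with 95% intervals of -0.26 to 1.42 and -0.64 to 1.34. Without Ephb4 control PBS mouse 4, the bleomycin differences in control mice were -0.50 for Psme1 and -0.57 for Psme2, and the CKO difference of Psme1 after PBS was 0.95 (0.35 without Ephb4 CKO PBS mouse 5). With the fibroblast markers as a covariate, the values in the bleomycin comparisons were -0.23 and 0.47 for Psme1 and 0.01 and 0.16 for Psme2. With the macrophage markers they were -0.37 and 0.47 for Psme1 and -0.39 and 0.33 for Psme2.

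Psme3, which encodes the nuclear activator PA28 gamma, was steady at 44.3 to 67.1 CPM, with differences of 0.03 ± 0.14 and -0.13 ± 0.14 log2 in the 2 bleomycin comparisons. Psme4, which encodes the activator PA200, ran against most other members with TMM scaling. It was at 122, 78.9, 122 and 60.4 CPM in Ephb4 control PBS, 64.1, 79.5, 96.8 and 100.5 in Ephb4 control bleomycin, 80.7, 127, 68.97, 91.7 and 113 in Ephb4 CKO PBS and 85.6, 69.4, 92.1 and 65.1 in Ephb4 CKO bleomycin, with the lowest value in the control PBS culture (mouse 4) that had the highest Psmb5, Psmb6 and Psmd10. The inhibitor gene Psmf1 was at 17.04, 19.3, 15.9 and 22.9 CPM, 23.5, 20.5, 18.96 and 18.1, 24.01, 18.4, 17.6, 18.2 and 25.6 and 21.7, 16.3, 18.1 and 20.7 in the 4 groups in that order, with overlap throughout.

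The immunoproteasome gene Psmb8 was at 47.3, 120.0, 48.7 and 181 CPM in Ephb4 control PBS, 29.8, 59.7, 34.96 and 31.3 in Ephb4 control bleomycin, 300.4, 48.4, 130.4, 96.2 and 296 in Ephb4 CKO PBS and 141, 55.7, 132 and 120.1 in Ephb4 CKO bleomycin. Psmb9 was at 6.60, 30.2, 8.80 and 26.8 CPM, 3.43, 8.41, 6.59 and 6.36, 62.2, 6.77, 27.2, 11.95 and 64.3 and 23.5, 8.30, 29.1 and 22.4 in the same order, and Psmb10 at 23.5, 30.3, 21.04 and 98.8, 18.4, 37.3, 28.1 and 24.99, 103, 24.996, 46.2, 44.9 and 158 and 64.8, 36.3, 39.6 and 74.7. Psmb8, Psmb9 and Psmb10 had differences of -1.35, -1.55 and -0.68 log2 for bleomycin in control mice and 1.52, 1.75 and 0.99 for CKO against control after bleomycin (smallest adjusted p = 0.218, edgeR, for Psmb8). Within each library, the ratio of each to its constitutive partner did not pass a 2-sided exact permutation test in any of 12 tests. The smallest exact p was 0.0571 (adjusted p = 0.257) for Psmb9 to Psmb6 in CKO against control after bleomycin, a difference of 0.89 log2, and 4 against 4 mice allow no exact p under 0.0286.

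Other genes of the pathway were taken from lists by function. None of their members was called by edgeR or limma voom in any comparison, whereas DESeq2 called 2, Rad23b and Uba1, both lower in Ephb4 CKO than in control after bleomycin. These were 2 of 28 genes, counting the 3 immunoproteasome genes, beside 399 of all 10481 genes called by DESeq2 in that comparison. The lists held 3 assembly factors of the core, 4 further cap subunits and deubiquitinases, 5 regulators of proteasome genes, 5 ubiquitin and E1 genes and 8 shuttle factors and p97 partners. Together with the 3 immunoproteasome genes, 4 of 28 had an unadjusted p under 0.05 with edgeR in each bleomycin comparison (14.3% and 20.2% of all genes), 5 and 4 with DESeq2 and 3 in each with limma voom. In the interaction 2 had one with each tool (edgeR: 3.46% of all genes), and in the other 2 comparisons none. For DESeq2 and limma voom, the share of all genes at that p was not set beside these counts. Without the immunoproteasome genes, whose larger differences are given above, the list medians lay between -0.16 and 0.16 log2 for bleomycin in control mice. For CKO against control after bleomycin they lay between -0.15 and 0.26, and the all-gene medians were -0.06 and 0.01. Rad23b, a shuttle factor that carries ubiquitinated proteins to the proteasome, had the smallest p of these genes in both, with 0.38 ± 0.14 log2 for bleomycin in control mice and -0.54 ± 0.14 for CKO against control after bleomycin (adjusted p = 0.315 and 0.187, edgeR). Uba1, the ubiquitin-activating enzyme, had 0.39 ± 0.15 and -0.39 ± 0.15 log2 (adjusted p = 0.320 and 0.218). Nfe2l1 had 0.26 ± 0.24 and -0.30 ± 0.24 log2 (adjusted p = 0.604 and 0.466). Uba1 and Nfe2l1 were named after their values had been seen.

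Most members varied little between cultures of the same group. Their median within-group SD of log2 CPM was 0.21, beside 0.42 for all 10481 genes, and 34 of 39 lay below the all-gene median. Higher levels go with lower sampling noise, and the members' median mean level was 81.5 CPM beside 27.2 for all genes. The 5 above the all-gene median were Psme2 (0.74), Psme1 (0.62), Psmd10 (0.56), Psmb6 (0.53) and Psmd8 (0.47). Psmb5 and Psma6 followed at 0.41 and 0.40.

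**Figure D4:**
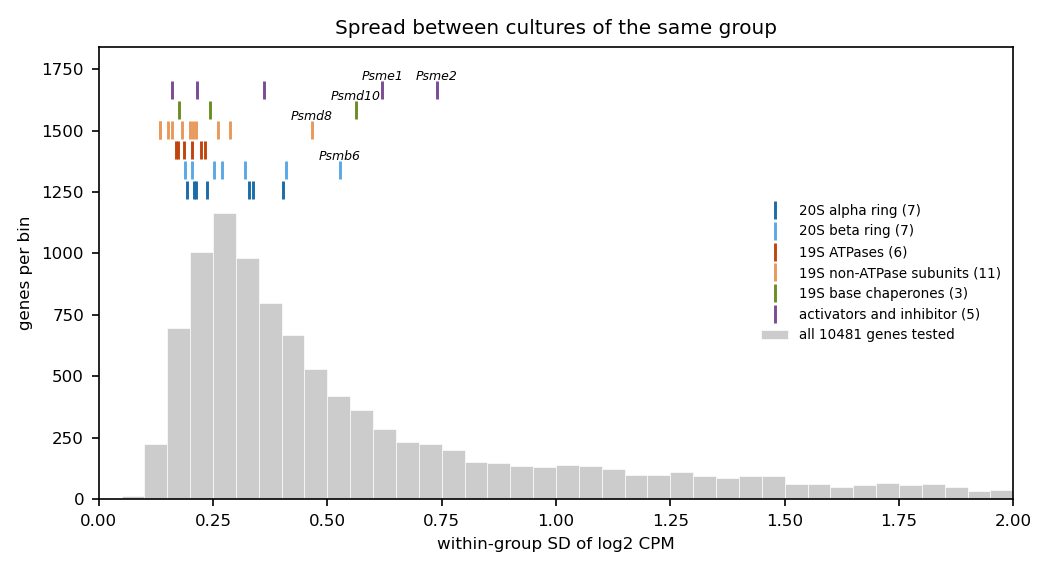
Within-group SD of log2 CPM over the 17 libraries for all 10481 genes tested (grey histogram, 501 genes above 2 not drawn). Ticks above it mark the 39 proteasome genes, 1 row and colour per role, and their height has no scale. The members' median is 0.21 and that of all genes 0.42, and Psme2, Psme1, Psmd10, Psmb6 and Psmd8 lie farthest to the right.

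Most subunits also varied together. After group means were removed, the median Pearson's r of log2 CPM between 2 members over the 17 libraries was 0.506 (741 pairs), beside -0.0046 over 54920440 pairs of all genes. With total counts the medians were 0.552 and 0.135. By role, the median r was 0.833 within the beta ring, 0.687 within the alpha ring, 0.720 among the ATPases, 0.301 among the non-ATPase subunits and 0.437 among the activators and inhibitor, but -0.01 among the 3 base chaperones. These are descriptions without a test, because the genes of a pair share the library, its scaling and the mix of cells in the culture. The highest pair was Psme1 with Psme2 (r = 0.949, Spearman's rho = 0.944, and r = 0.944 without the 2 libraries farthest from the median), followed by Psmb5 with Psmb6 (0.937, 0.939 and 0.886) and Psma2 with Psmb1 (0.916, 0.887 and 0.859). A negative median r with the other members was found for 3 genes, Psme4 (-0.468), Psmc6 (-0.205) and Psmd5 (-0.134). For Psme4 and Psmb1, the lowest pair, r was -0.760 (rho = -0.718, and -0.608 without the 2 farthest libraries), but -0.219 with total counts. Among the lowest pairs of Psme4, r with total counts ran from -0.663 with Psmb6 to -0.012 with Psmc2.

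**Figure D5:**
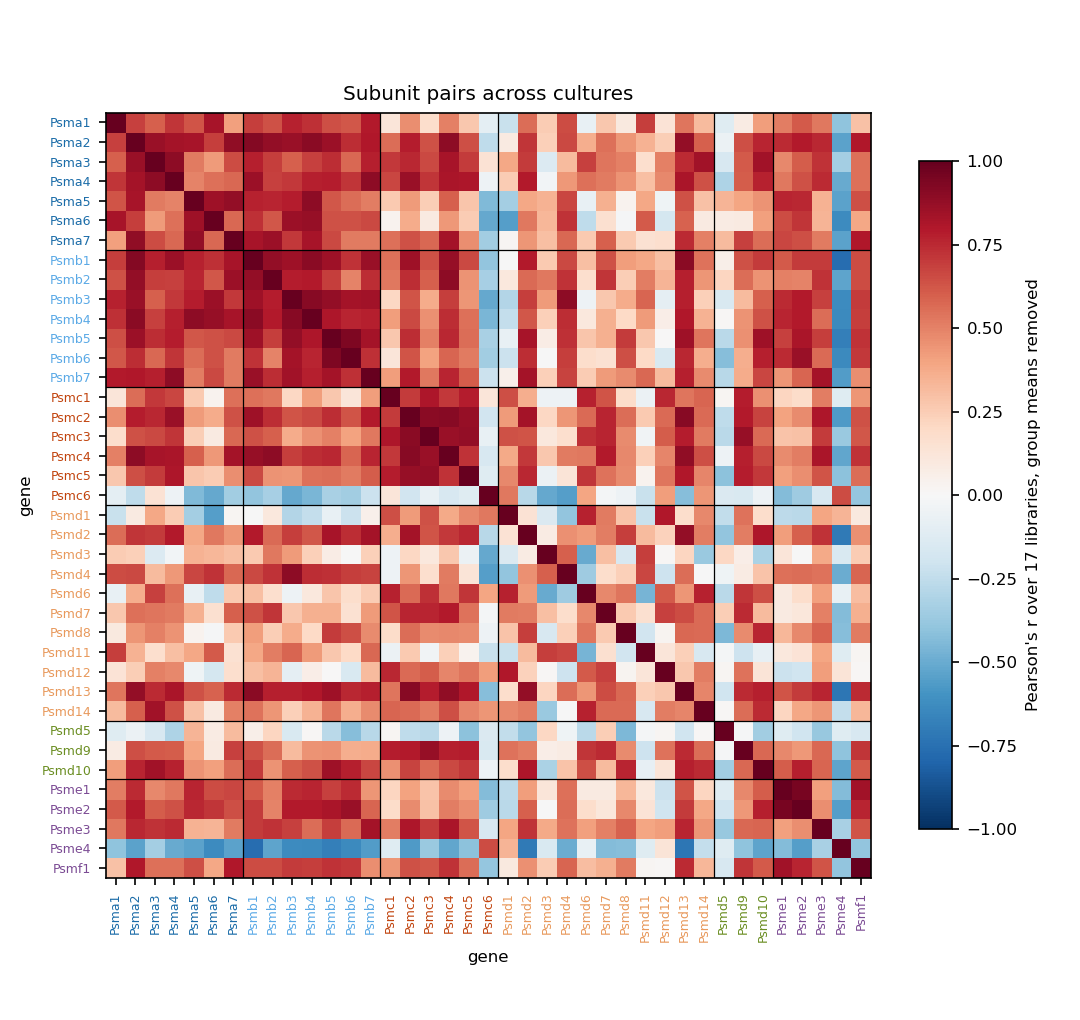
Pearson's r between each pair of proteasome genes over the 17 libraries, from log2 CPM with group means removed. Genes are ordered and coloured by role, with lines between roles. The alpha and beta ring blocks are mostly red, and the Psme4, Psmc6 and Psmd5 lines are mostly blue or pale.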

How the data were processed

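The deposited file is a table of whole-number gene counts made by the authors. Reads of 75 bases (paired, strand-specific) were trimmed with Cutadapt and aligned to GRCm38 with HISAT2 2.1.0. Reference transcripts were quantified with StringTie, whose coverage was turned into counts. StringTie divides coverage among overlapping or near-identical transcripts, so subunits with processed pseudogenes are uncertain to that extent. The study's own model had a batch term, and the batch of each library is not given in the sources used here. Depth was 66540022 to 120554468 counts per library, and intervals cover the spread between mice and counting error together.

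From these counts, genes above 10 CPM in at least 2 libraries were kept, and edgeR 4.0.16 (R 4.3.3) fitted 1 mean per group over all 17 libraries with TMM scaling, a quasi-likelihood test and p-values adjusted by Benjamini-Hochberg over all 10481 genes, with calls at 0.05. DESeq2 1.42.0 and limma voom (limma 3.58.1) were alternatives, beside other scalings, filters, covariates (recorded sex, library number series, runs of columns, macrophage or fibroblast score) and leaving out libraries. The fit was also run on simulated counts for CKO against control after bleomycin, with log2 changes of 2 either way in 200 genes. At the estimated dispersion it called 145 of the 200 and 3 unchanged genes. With the low dispersion of the steadiest genes it called 200 and 12 unchanged genes. Smaller changes were not simulated, so power for differences of the size fitted for the members was not tested. Log ratios of immunoproteasome to constitutive genes were compared by exact permutation tests (scipy 1.17.1).

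The members and lists were chosen with earlier results of these data known. Values in every library were given for the 2 members with the smallest p in each direction of each comparison, the highest and lowest member per length in each role, the widest and narrowest spread, the catalytic and immunoproteasome genes, Psme1, Psme2 and Ephb4. For the pathway lists, the gene with the smallest p in each direction of each bleomycin comparison was named. Psma1, Uba1, Nfe2l1, the interferon response and TTCNNNGAA motifs, and total counts without TMM scaling were added after the values had been seen.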

Additional observations from a re-analysis of the deposited data

Results flagged for a closer look

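In groups of 4 or 5 mice, a value was set apart when its gap to the nearest other value, divided by the group's range, exceeded Dixon's 95% critical value. For independent groups of normally distributed values, chance does this in about 1 in 20 groups. Here 15 of 116 groups of values did so. That rate is no baseline for this count, because the groups share libraries and many of the genes varied together. Some genes were also named for a wide spread or a small p in these same data. The count therefore cannot show whether more values were set apart than chance would give.

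Ephb4 control bleomycin mouse 1 was high for Psma7 (131 CPM), Psmb1 (146 CPM), Psmc4 (131 CPM) and Psmd7 (51.0 CPM), for the sum of the proteasome genes (3692 CPM) and for their share of all counts (0.479%). It had the lowest summed macrophage markers of its group, 1177.5 CPM against 14754 to 19738 in the other 3 mice. Ephb4 control PBS mouse 4 was high for Psmc2 (74.1 CPM), Psmc4 (112 CPM), Psmd10 (63.6 CPM) and the immunoproteasome gene Psmb10 (98.8 CPM), and it had the lowest summed fibroblast markers of all libraries, 46.4 CPM. Ephb4 CKO bleomycin mouse 4 was high for Psmc2 (60.8 CPM), Psmd2 (334 CPM) and Psmd10 (58.7 CPM), with the lowest summed fibroblast markers of its group, 76.6 CPM. The part of these marker levels in the high values was not tested.

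Ephb4 CKO bleomycin mouse 2 was low for Psme1, at 58.7 CPM against 117 or more in the other 3 mice, and it is 1 of the 3 libraries of conflicting sex. Ephb4 was high in Ephb4 CKO PBS mouse 2, at 23.6 CPM against at most 8.97 in the other 4 mice of that group.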

How the results depend on the processing

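No proteasome gene was called under any alternative, 85 with single libraries left out and 69 others, in the 5 comparisons. The main edgeR fit and limma voom called 0 of all 10481 genes in each comparison, so 0 members there says little about the members. DESeq2 called 166 and 399 genes in the bleomycin comparisons. The median log2 fold change stayed within 1 SD of the mice in all but 4 cases. For bleomycin against PBS in control mice it was 0.19 with the fibroblast score as a covariate (-0.01 for all genes) and 0.18 with total counts, an alternative chosen after seeing the data. It was -0.26 for CKO against control after bleomycin with total counts, and -0.22 for the interaction with the fibroblast score. With total counts the all-gene median moved to 0.15, -0.17, -0.22 and 0.11 in the 4 pairwise comparisons and members minus all genes stayed between -0.04 and 0.03. With single libraries left out, the fold change for CKO against control after PBS ran from -0.15 to 0.12 for Psmd2 (0.12 without Ephb4 control PBS mouse 4) and from -0.30 to 0.021 for Psmd4 (0.021 without Ephb4 control PBS mouse 2). For bleomycin in CKO mice it ran from -0.034 (without Ephb4 CKO bleomycin mouse 4) to 0.14 for Psmd2 and from -0.044 (without Ephb4 CKO bleomycin mouse 2) to 0.21 for Psmd5. The sign also turned for Psmf1 after PBS with total counts (-0.0027) and for Psmd5 in CKO mice without the 3 libraries of conflicting sex (-0.0029). With the fibroblast score it turned for Psmb6 (0.15) and Psme2 (0.0063) in control mice. These signs were followed only for the 2 members with the smallest p in each direction of each pairwise comparison. Other members also turned with the fibroblast score, as given above. They include Psmb5, Psmd8 and Psmd10 in control mice, and Psmb6, Psmd8 and Psmd10 for CKO against control after bleomycin. The Psmb10 to Psmb7 ratio differed by -0.43 to 0.17 in control mice and -0.43 to 0.14 in CKO mice with single libraries left out. The causes of these shifts were not tested. Members at an unadjusted p under 0.05 numbered 7 for bleomycin in control mice, but 0 with the number series or macrophage score, 1 with recorded sex or the fibroblast score and 3 with limma voom. For CKO against control after bleomycin they numbered 4, but 0 with the macrophage score, 1 with the number series and 2 with the fibroblast score. The share of all genes at that p was not set beside the counts under the alternatives. A change in these counts therefore cannot be read as particular to the members. As a share of counts outside the abundant noncoding genes, the group means were 0.437% to 0.478%, against 0.329% to 0.376% of all counts. No paired analysis was possible because the mouse numbers only name the animals of a group.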
